A study of Caenorhabditis elegans with 58 samples.

Results

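Animals whose mothers had been returned from 25°C to 20°C were compared with animals kept at 20°C throughout, in *Caenorhabditis elegans*, a nematode whose hermaphrodites make sperm first, around the fourth larval stage (L4), and oocytes afterwards. The comparison used 8 of the 58 RNA-seq libraries of the series, chosen by their titles. F1-back is 4 libraries from WT animals grown for 1 generation at 20°C after 2 generations at 25°C, and F1-1DOA is 4 libraries from untreated WT progeny of mothers in their first day of adulthood, at 20°C. Both groups are whole animals at L4 and share the WT genotype and the maintenance medium, and according to the study's methods every library is a pool of mid-L4 animals from an independent experiment and all heat-exposed lines were propagated through young mothers. F1-25C, the 4 WT libraries after 1 generation at 25°C, and 6 further groups of 4 libraries (WT progeny of mothers on day 4 of adulthood, F1-4DOA; progeny of WT hermaphrodites crossed with males that carried the *oyIs14* reporter, 1DOAx1DOA and 1DOAx4DOA; and mutants of *set-2*, which encodes an H3K4 methyltransferase, with the SET domain point mutation *zr1208*, from young mothers, old mothers and 25°C) were used only for reference. The question was whether the transcriptome still differed after 1 generation back at 20°C.

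A move to 25°C is a mild warm condition for this animal. Warmth acts on heat shock genes, on innate immune genes and on the germ line, and some effects of a parent's surroundings are passed to progeny by small RNAs, by histone marks or by what the mother places in the oocyte. Metallothioneins are small cysteine-rich proteins that bind zinc, copper and cadmium. Major sperm proteins (MSPs) form the cytoskeleton of the crawling nematode sperm and are encoded by many near-identical genes, so that reads can be split between copies and single MSP genes are uncertain.

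Of 13794 genes tested, 43 were called, which is 0.312%, with 22 higher in F1-back (0.159%) and 21 lower (0.152%). A call required a Benjamini-Hochberg adjusted p under 0.05 in the edgeR quasi-likelihood test and a log2 fold change beyond 1. With the adjusted p alone 58 genes passed (0.42%), at an unadjusted p under 0.05 there were 1485 (10.8%), and the median log2 fold change of all genes tested was -0.046. The log2 fold change was positive for 5961 of all genes tested and negative for 7832, which is the background for the sign counts of lists below. The same fit called 756 genes (5.48%) between F1-25C and F1-1DOA, of which 585 (4.24%) were higher at 25°C, and 1084 genes (7.86%) between F1-25C and F1-back, 860 (6.23%) higher and 224 (1.62%) lower at 25°C. These counts share libraries and are set side by side without a test. Fitted on the 8 libraries alone, edgeR called 32 higher and 50 lower, with 13 of the 22 and 18 of the 21 among them, and DESeq2 called 40 and 50, with 12 and 19 among them. Over up to 20 other settings, 14 of the 43 genes were called in every setting that gave a value. When some single library was left out, 26 lost their call. Of the 14, 10 were higher, and all of these but F41B5.1 and T04D3.5 were near 0 in F1-1DOA. Among these, F42G4.6, T02H6.1, T07F12.7, col-2, col-50 and col-85 gave a value in 15 settings only, so the other settings could not remove their calls. The lower calls rested on every F1-back library, with 4, 8, 13 and 5 left without replicates 1 to 4, and 9 were left without F1-1DOA replicate 2 or 4.

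**Figure D1:**
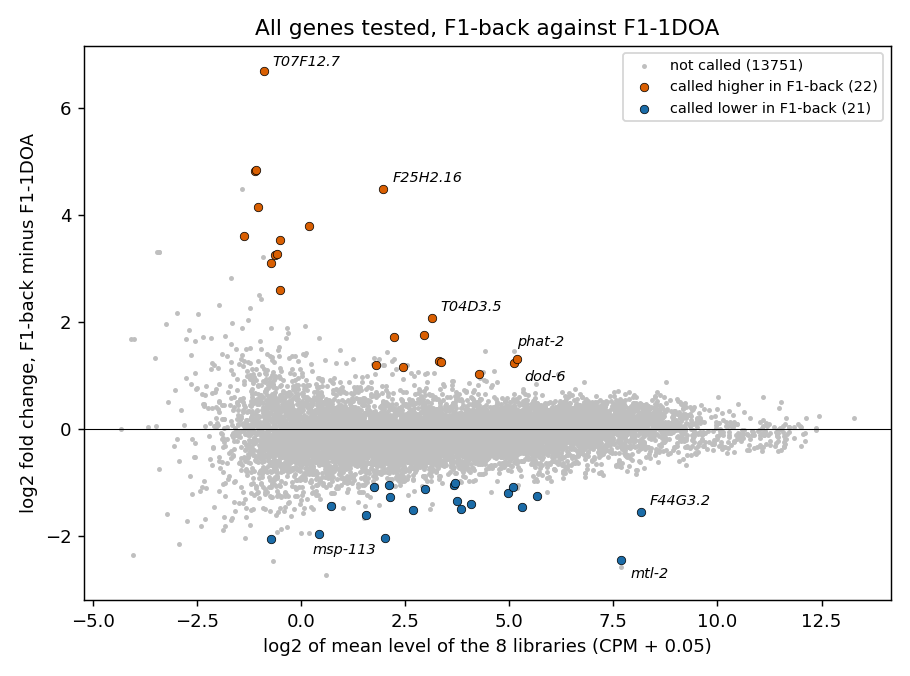
Mean level of each gene over the 8 libraries (horizontal, log2 of CPM + 0.05) against the log2 fold change of F1-back relative to F1-1DOA (vertical). Each point is 1 of 13794 genes, 22 called higher and 21 called lower are coloured, and the calls with the largest positive fold changes lie at the left, at very low levels.

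The libraries differed in ways the labels do not explain, and this bears on the higher calls. Total counts were 10876555 to 14149998 in F1-back and 8199862 to 22723332 in F1-1DOA. In counts per 1e+06 mapped counts, scaled by the normalisation factors (CPM), 12 of the 22 genes called higher had a mean under 1 in F1-1DOA, and their summed level separated whole groups: F1-1DOA held 0.398 to 1.51 CPM, F1-4DOA 0.888 to 1.93 and F1-25C 1.04 to 1.55, but F1-back held 18.2 to 21.2 and the 5 *set-2* and cross groups 8.33 to 27.5. The 12 libraries of F1-1DOA, F1-4DOA and F1-25C thus stood apart from the other 24, and both sets contain animals at 20°C and at 25°C and progeny of young and of old mothers. Over all 36 libraries, 5 genes (F25H2.16, col-114, phat-1, phat-2 and srz-70) were higher in each of those 24 libraries than in any of the 12, and 0 were lower. The labels name no batch. The ribosomal RNA entry rrn-2.1, chosen after its values were seen, was at 425, 404, 445 and 144 CPM in F1-1DOA and 9.34, 19.6, 25.9 and 182 in F1-back (log2 fold change -2.58, standard error (SE) 1.09, edgeR adjusted p = 0.383), and it did not follow the sets throughout: it spread from 27.1 to 1050 CPM in F1-25C, from 103 to 349 in F1-4DOA and from 14.6 to 283 in 1DOAx1DOA, and was at 2.52 to 75.1 over the *set-2* groups and 12 to 52.2 in 1DOAx4DOA. A difference between these 2 sets of libraries and an effect of the return to 20°C cannot be told apart for genes that follow the sets. Taken singly, F25H2.16 was the 1 gene of the 12 whose libraries did not overlap between the 2 sets. F42G4.6 had a log2 fold change of 0 between 1DOAx4DOA and F1-4DOA. Without the 12 genes, 10 genes were called higher, and these include phat-2, which also separated the 2 sets.

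**Figure D2:**
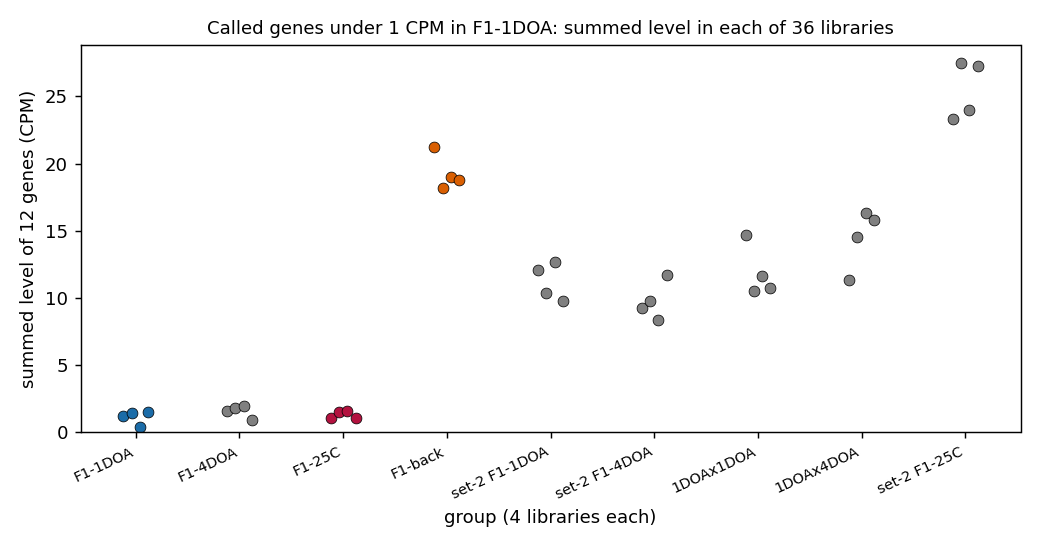
Summed level (CPM) of the 12 genes called higher whose mean was under 1 CPM in F1-1DOA, 1 point per library, for 9 groups of 4. F1-1DOA, F1-4DOA and F1-25C lie at or under 1.93 CPM and the other 6 groups at or above 8.33 CPM.

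These 12 genes were 4 cuticle collagens (col-2, col-50, col-51 and col-85), 2 intermediate filament genes (ifb-1 and ifc-2), the coding genes F42G4.6 and T02H6.1, 3 non-coding RNAs (F25H2.16, T07F12.7 and C18H7.14) and the small nucleolar RNA K04D7.17. C18H7.14, K04D7.17 and ifb-1 lie outside the naming rule and were added after their values were seen. F25H2.16 had 7.76, 5.17, 8.3 and 8.73 CPM in F1-back and 0.503, 0.13, 0 and 0.502 in F1-1DOA (log2 fold change 4.48, SE 0.39, edgeR adjusted p = 5.84e-09). Its exons overlap those of F25H2.14 and of tct-1, which encodes the translationally controlled tumour protein, on the other strand. The library kit does not mark strand, so their reads cannot be separated. T07F12.7 had 46 counts over the 4 F1-back libraries and 0 over the 4 F1-1DOA libraries, at least 16-fold higher against a floor of 3 counts over the group, and 0 counts in F1-4DOA, in F1-25C and in the 22 outcross libraries of the series. For col-2 the counts were 39 against 1, a ratio of 40.7 with a 95% counting interval of 6.89 to 1650, and T02H6.1 had the same counts. For col-50 they were 40 against 2, a ratio of 20.9 (5.42 to 178), and for C18H7.14 29 against 2, a ratio of 15.1 (3.83 to 131). These intervals cover counting error only.

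The other members of this set were low as well. ifc-2, an intermediate filament of the intestine, had 3.05, 2.59, 1.25 and 1.41 CPM in F1-back against 0 to 0.201 in F1-1DOA, and was at 1.65 to 2.73 in 1DOAx1DOA. col-51, which neighbours col-50, had 1.13 to 1.39 CPM against 0 to 0.183, col-85 had 0.751 to 1.29 against 0 to 0.52, and F42G4.6 had 0.808 to 1.48 against 0.0457 to 0.26. K04D7.17 was at 0.657 to 1.4 CPM against 0 to 0.302, and ifb-1 at 0.727 to 1.76 against 0 to 0.228. A gene entry in these files can miss reads of its gene, as described for unc-15 further on. Whether the entries of ifb-1 and ifc-2 hold all reads of their genes was not tested. No library of one group reached the other in any of the 12.

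Of the 43 called genes, 37 are protein-coding, and 14 have exons that overlap another gene, on the other strand for all but Y81G3A.1, as do 31.8% of the tested entries. Beside those named with their partner elsewhere in the text, these are col-2 (W01B6.15), col-85 (T21B4.18), C18H7.14 (col-102), ifb-1 (dmd-5), nas-12 (F01G10.6), phat-2 (anr-10), C01B12.8 (F23F1.4), Y23H5A.2 (cars-1), Y52E8A.3 (gtf-2F1) and Y81G3A.1 (Y81G3A.6). Reads of each pair may come from either gene.

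The cuticle collagens build the exoskeleton that is replaced at each molt. Of 144 tested, 4 were called higher (2.78%, against 0.159% of all genes), all of them in the near-zero set above, and 0 lower, 56 had a positive and 88 a negative log2 fold change, 11 did not overlap on the higher side (7.64%, against 6.17% of all genes), and the median was -0.08. Their summed level was 50000 to 54600 CPM in F1-back and 44700 to 77700 in F1-1DOA, so the groups overlapped. The 4 called collagens carry almost none of this sum.

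The largest fall among the 43 genes was in a metallothionein gene. mtl-2, an intestinal metallothionein, was at 58, 45, 79.5 and 72.8 CPM in F1-back and at 256, 299, 403 and 432 in F1-1DOA, with no overlap. Its log2 fold change was -2.45 (SE 0.45, edgeR adjusted p = 0.00579). At 25°C it varied widely, with 81.9 and 79.5 CPM in F1-25C replicates 1 and 2 and 387 and 338 in replicates 3 and 4. Low mtl-2 was also seen in the cross groups at 20°C, with means of 90.2 CPM in 1DOAx1DOA and 101 in 1DOAx4DOA, while F1-4DOA had 138 to 274. Against 1DOAx1DOA, a reference chosen after the data were seen, the log2 fold change of F1-back was -0.5 (edgeR adjusted p = 0.661).

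The second metallothionein gene, mtl-1, which is induced in the intestine and expressed in the pharynx, was near its lower limit. It was at 0.185, 0.162, 0.367 and 0.845 CPM in F1-back and at 1.21, 1.69, 3.88 and 3.33 in F1-1DOA, with no overlap, and was not called (log2 fold change -2.73, SE 0.93, edgeR adjusted p = 0.238). It was called lower in 4 other settings, which were edgeR, DESeq2 and edgeR with a replicate block on the 8 libraries alone and edgeR on the 16 WT self-progeny libraries. The adjusted p over all 20 settings ran from 0.000224 to 0.579. At 25°C mtl-1 was at 9.08 to 21.4 CPM. Other groups at 20°C were as low as F1-back or nearly so, with 0.359 to 1.07 CPM in F1-4DOA and 0 to 2.15 in 1DOAx1DOA. Of 15 further metal and iron handling genes, 0 were called and 0 had an unadjusted p under 0.05, against 0.312% and 10.8% of all genes. Their median log2 fold change was -0.05.

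Most sperm genes had a negative log2 fold change, mostly short of the fold threshold. Of 30 MSP genes tested, 29 had a negative log2 fold change, the median was -0.68, 20 had an unadjusted p under 0.05 (66.7%, against 10.8% of all genes), and 21 did not overlap between the groups on the lower side (7.53% of all genes did so). Only msp-113 was called. It was at 2.22, 1.7, 1.4 and 0.939 CPM in F1-back and 4.33, 8.19, 6.77 and 6.53 in F1-1DOA (log2 fold change -2.04, SE 0.38, edgeR adjusted p = 0.00467), and at 1.77 to 2.3 in 1DOAx1DOA. The summed MSP level was 2720, 2430, 2680 and 2520 CPM in F1-back and 3170, 4200, 4420 and 4550 in F1-1DOA. The groups did not overlap, and F1-1DOA replicate 1 lay nearest to F1-back. In F1-25C the sum was 2460 to 4040 CPM and in 1DOAx1DOA 3240 to 3930. Without exposure to 25°C, 1DOAx4DOA (2220 to 3710 CPM) and F1-4DOA (2260 to 6340 CPM) overlapped F1-back.

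Of 39 other sperm genes tested, 34 had a negative log2 fold change, 0 were called and the median was -0.35. The summed level was 2610 to 3020 CPM in F1-back and 3400 to 4080 in F1-1DOA, and 3020 to 3900 in 1DOAx1DOA and 2450 to 3490 in 1DOAx4DOA. Examples are msd-4, of the small MSP-domain family, at a mean of 269 against 392 CPM (log2 fold change -0.54, edgeR adjusted p = 0.494), and ssq-2, a sperm-specific family member, at 283 against 378 CPM (log2 fold change -0.42, edgeR adjusted p = 0.554). nspd-3, of a nematode-specific peptide family, was called lower. It was at 29.8, 29.4, 29.8 and 31.8 CPM in F1-back and 57.5, 72.9, 73.1 and 83 in F1-1DOA (log2 fold change -1.25, SE 0.29, edgeR adjusted p = 0.0379), and at 32 to 51 in 1DOAx1DOA. This call was lost in 9 of 20 other settings. Of the 39 genes of the nematode-specific peptide families that were tested, 29 had a negative log2 fold change, and their sums were 934 to 1050 CPM against 1200 to 1640. The sums were 1100 to 1390 CPM in 1DOAx1DOA and 932 to 1350 in 1DOAx4DOA.

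fog-3, a member of the male-enriched list, which in hermaphrodites directs germ cells to become sperm, was called higher, at 14, 10.3, 15.3 and 16.4 CPM in F1-back and 5.54, 4.68, 4.88 and 7.67 in F1-1DOA (log2 fold change 1.27, SE 0.26, edgeR adjusted p = 0.011). It was at 4.02 to 5.45 CPM in F1-25C, but groups that were not at 25°C reached the level of F1-back, with 6.47 to 11.4 CPM in 1DOAx1DOA, 12.9 to 18.2 in 1DOAx4DOA and 18.8 to 32.6 in *set-2* F1-4DOA. Of 35 germline and meiosis genes, 28 had a positive log2 fold change, 0 were called, 7 did not overlap on the higher side (6.17% of all genes did so) and the median was 0.2. Of 27 oocyte and eggshell genes, 4 had a positive and 23 a negative log2 fold change, 0 were called and the median was -0.19. The RNA helicase gene glh-1 of the germ granules had means of 900 against 657 CPM (log2 fold change 0.45, edgeR adjusted p = 0.238), and cgh-1, another germline RNA helicase, had 564 against 306 CPM (log2 fold change 0.88, edgeR adjusted p = 0.422). The argonaute genes wago-1 (509 against 335 CPM, log2 fold change 0.6, edgeR adjusted p = 0.224) and hrde-1 (276 against 223 CPM, log2 fold change 0.31, edgeR adjusted p = 0.696) were not called, nor was any of 26 nuclear RNAi and H3K9 methylation genes. Means in 1DOAx1DOA and 1DOAx4DOA, at 20°C, were 844 and 870 CPM for glh-1 and 792 and 665 for cgh-1. There wago-1 was at 581 and 509 CPM and hrde-1 at 270 and 247.

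Summed germline markers were 1210 to 1470 CPM in F1-back and 764 to 1130 in F1-1DOA, with pgl-1 among them at 0 counts in all 8 libraries. Summed sperm markers were 2860 to 3140 CPM against 3660 to 5050. Groups without heat exposure overlapped F1-back as well. For germline markers these were 1DOAx1DOA (1200 to 1430 CPM) and 1DOAx4DOA (1180 to 1370), but not F1-4DOA (689 to 1160). For sperm markers these were 1DOAx4DOA (2560 to 4190 CPM) and F1-4DOA (2570 to 6920), but not 1DOAx1DOA (3640 to 4440). In whole animals, fewer cells of a type and less RNA per cell cannot be told apart. Markers of intestine, muscle, hypodermis, neurons, vulva, oocytes and males overlapped between F1-back and F1-1DOA. unc-15, which encodes the abundant muscle protein paramyosin, and elt-3 were also at 0 counts in all 8 libraries, so a 0 in these files does not show that a gene was silent. Yolk protein genes, which come on late in L4, split F1-back: the summed level was 8710 and 7490 CPM in replicates 1 and 2 and 1770 and 2130 in replicates 3 and 4, against 1670 to 6710 in F1-1DOA. vit-2 (log2 fold change 0.32, SE 0.52) and vit-6 (0.6, SE 0.49) were not called.

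**Figure D3:**
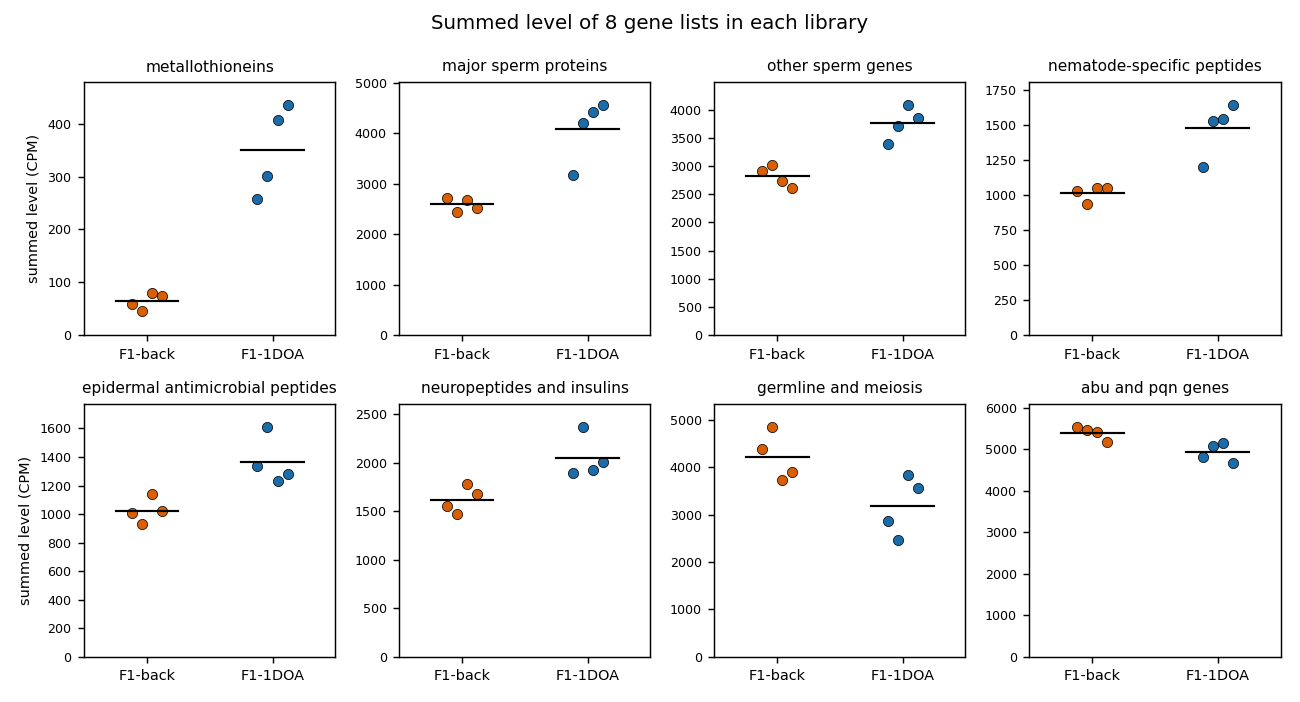
Summed level (CPM) of 8 gene lists, 1 point per library, with a bar at the mean of 4. F1-back and F1-1DOA do not overlap for metallothioneins, major sperm proteins, other sperm genes, nematode-specific peptides, epidermal antimicrobial peptides, neuropeptides and insulins, and the abu and pqn genes, and they overlap for germline and meiosis genes. The 8 lists are a selection, and the groups overlapped for every list that was summed but is not shown.

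Lists of secreted peptides gave no call, as most lists of their size would with 0.312% of all genes called. The epidermal antimicrobial peptides are short secreted peptides of the skin that respond to fungi and wounding. Of 37 tested, 32 had a negative log2 fold change with a median of -0.41, but 1 had an unadjusted p under 0.05 and 0 were called. Their sum was 929 to 1140 CPM in F1-back and 1230 to 1610 in F1-1DOA, and 1200 to 2210 in 1DOAx1DOA and 1170 to 1380 in 1DOAx4DOA. nlp-33 had means of 329 against 442 CPM (log2 fold change -0.43, edgeR adjusted p = 0.54) and fipr-21 of 187 against 263 CPM (log2 fold change -0.5, edgeR adjusted p = 0.507). Of 93 neuropeptide and insulin genes, 85 had a negative log2 fold change with a median of -0.28, where 7832 of all 13794 genes were negative. Of the 93, 14 had an unadjusted p under 0.05 (15.1%, against 10.8% of all genes), and 0 were called. Their sum was 1470 to 1780 CPM against 1900 to 2370, and 1920 to 2650 in 1DOAx1DOA and 1790 to 2000 in 1DOAx4DOA. nlp-36, an abundant member, had means of 124 against 155 CPM (log2 fold change -0.31, edgeR adjusted p = 0.436).

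Among enzymes, F44G3.2, named argk-1 in RefSeq and encoding an arginine kinase, was at 155, 136, 136 and 150 CPM in F1-back and 396, 503, 433 and 374 in F1-1DOA (log2 fold change -1.56, SE 0.33, edgeR adjusted p = 0.0215). It was also low in the 20°C groups 1DOAx1DOA (123 to 232 CPM) and *set-2* F1-1DOA (59 to 165 CPM). Of 162 detoxification genes tested, 2 were called lower (1.23%, against 0.152% of all genes) and 0 higher, with a median of -0.05. These were ugt-8, a UDP-glucuronosyltransferase, at 7.43 to 11.5 CPM against 19.2 to 30.5 (log2 fold change -1.41, SE 0.31, edgeR adjusted p = 0.0224), and cyp-35A1, a cytochrome P450, at 0.242 to 0.882 CPM against 1.11 to 3.2 (log2 fold change -1.96, SE 0.46, edgeR adjusted p = 0.039), a call lost in 8 of 19 other settings. ugt-8 was lower in F1-back than in 1DOAx1DOA as well, at 13.4 to 31.6 CPM there (log2 fold change -1.18, edgeR adjusted p = 0.0469).

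Of 168 lectin, lysozyme and saposin-like immunity genes tested, 1 was called higher (T24B8.5, given with the higher genes) and 1 lower, 1.19% in all against 0.312% of all genes. The lower gene, clec-206, a C-type lectin gene, was at 9.24, 6.62, 7.35 and 7.14 CPM in F1-back and 10.1, 9.88, 26.5 and 30.2 in F1-1DOA (log2 fold change -1.35, SE 0.29, edgeR adjusted p = 0.0224). F1-1DOA split into a low and a high pair, 1DOAx1DOA was at 6.65 to 11.8 CPM and F1-25C at 7.33 to 12.2, and the call was lost in 9 of 20 other settings. str-7, of a chemoreceptor family, was at 3.01 to 3.64 CPM against 7.65 to 12.3 (log2 fold change -1.52, SE 0.3, edgeR adjusted p = 0.00881), and at 2.21 to 5.22 in 1DOAx1DOA. In *set-2* animals str-7 was higher at 25°C than at 20°C, at 9.36 to 15.1 against 2.22 to 4.08 CPM (log2 fold change 1.96, edgeR adjusted p = 7.43e-05).

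The remaining lower genes are little characterised or known by sequence name. The neighbours F23A7.8 and F23A7.4, with no protein-coding gene between them, fell together. F23A7.8 had a mean of 21.3 CPM with a highest library of 30.8, against 52.6, 72, 54.3 and 54.5 (log2 fold change -1.45, SE 0.25, edgeR adjusted p = 0.00201), and F23A7.4 at 18.5 to 26.6 CPM against 43.1 to 55.6 (log2 fold change -1.09, SE 0.24, edgeR adjusted p = 0.0224). Both were also lower at 25°C than at 20°C in *set-2* animals, with log2 fold changes of -1.1 and -1.18, whereas neither was called between F1-25C and F1-1DOA (-0.64 and -0.86). In 1DOAx1DOA, at 20°C, they were near F1-back, with means of 25.2 and 23.1 CPM. C01B12.8, named enee-1 in RefSeq, was at 14.7 to 21.4 CPM against 36.2 to 47.4 (log2 fold change -1.2, SE 0.22, edgeR adjusted p = 0.00365) and at 39.6 to 53.9 CPM in F1-25C, so that F1-back was below both. Y73B3A.1 was at 7.93 to 10.3 CPM against 15.8 to 20.3 (log2 fold change -1.01, SE 0.17, edgeR adjusted p = 0.00124), just past the fold threshold, and lost its call in 13 of 20 other settings. Y23H5A.2 was at 1.76 to 3.15 CPM against 5.48 to 6.8 (log2 fold change -1.27, SE 0.24, edgeR adjusted p = 0.00603).

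Y52E8A.3, Y54E2A.5 and M02E1.3 each had a log2 fold change between -1.44 and -1.04 with an edgeR adjusted p = 0.0224. The piRNA entry 21ur-6598 (6.76 to 8.6 CPM against 15.2 to 29.8) lies within exons of pqn-22 on the other strand, and a piRNA is shorter than a sequencing fragment, so its reads cannot be assigned to the piRNA. Called genes outside the naming rule, added after their values were seen, were W03G9.3 (enu-3.3 in RefSeq), Y81G3A.1, the pseudogene Y73B3A.13 and ZC317.7, all lower, with log2 fold changes of -1.05, -1.09, -2.05 and -1.6. Their calls were lost in 12 of 20, 9 of 19, 11 of 16 and 8 of 19 other settings, and that of Y73B3A.13 whichever of the 8 libraries was left out. ZC317.7 was the 1 called gene whose groups overlapped, at 0.845 to 2.35 CPM against 2.09 to 5.43. The other 42 of 43 did not overlap, against 13.7% of all genes. The 43 were called on these same libraries, which favours genes without overlap, so this adds no support to the calls.

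Of the 10 genes called higher with a mean of at least 1 CPM in F1-1DOA, T04D3.5 had the largest fold. It was at 14.3, 16.8, 12.1 and 13.2 CPM in F1-back and 3.42, 2.34, 5.58 and 2.24 in F1-1DOA (log2 fold change 2.07, SE 0.27, edgeR adjusted p = 4.39e-05). It was at 8.24 to 11.7 CPM in F1-25C, where it also exceeded F1-1DOA (log2 fold change 1.55, edgeR adjusted p = 0.000329), at 2.9 to 5.59 in 1DOAx1DOA and at 3.23 to 6.57 in F1-4DOA. It was also at 5.46 to 11.4 CPM in *set-2* F1-1DOA, at 20°C, with a log2 fold change of 0.19 between 25°C and 20°C in these mutants. Its exons overlap those of the guanylate cyclase gene gcy-35 on the other strand, so the reads may belong to either. F41B5.1 had the same order: 8.04, 6.62, 5.95 and 8.36 CPM in F1-back, 1.69 to 2.79 in F1-1DOA (log2 fold change 1.72, SE 0.23, edgeR adjusted p = 4.39e-05), 3.11 to 6.55 in F1-25C and 2.82 to 3.69 in 1DOAx1DOA, with 4.27 to 7.29 in *set-2* F1-1DOA.

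fbxc-43, an F-box gene, was at 10.9, 10.1, 13.2 and 13.3 CPM against 2.42, 2.08, 4.28 and 4.84 (log2 fold change 1.76, SE 0.36, edgeR adjusted p = 0.0131), and spread from 2.37 to 11.6 in F1-25C. Of 225 F-box and MATH/BTB genes it was the only one called (0.444%), near the 0.312% of all genes. T20F7.1, outside the naming rule and added after its values were seen, was at 21.3 to 29.5 CPM against 10 to 14.3 (log2 fold change 1.02, SE 0.23, edgeR adjusted p = 0.0265), at 21.9 to 36.8 in F1-25C and at 10.8 to 28.1 in *set-2* F1-1DOA. Its exons overlap acs-9 on the other strand.

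**Figure D4:**
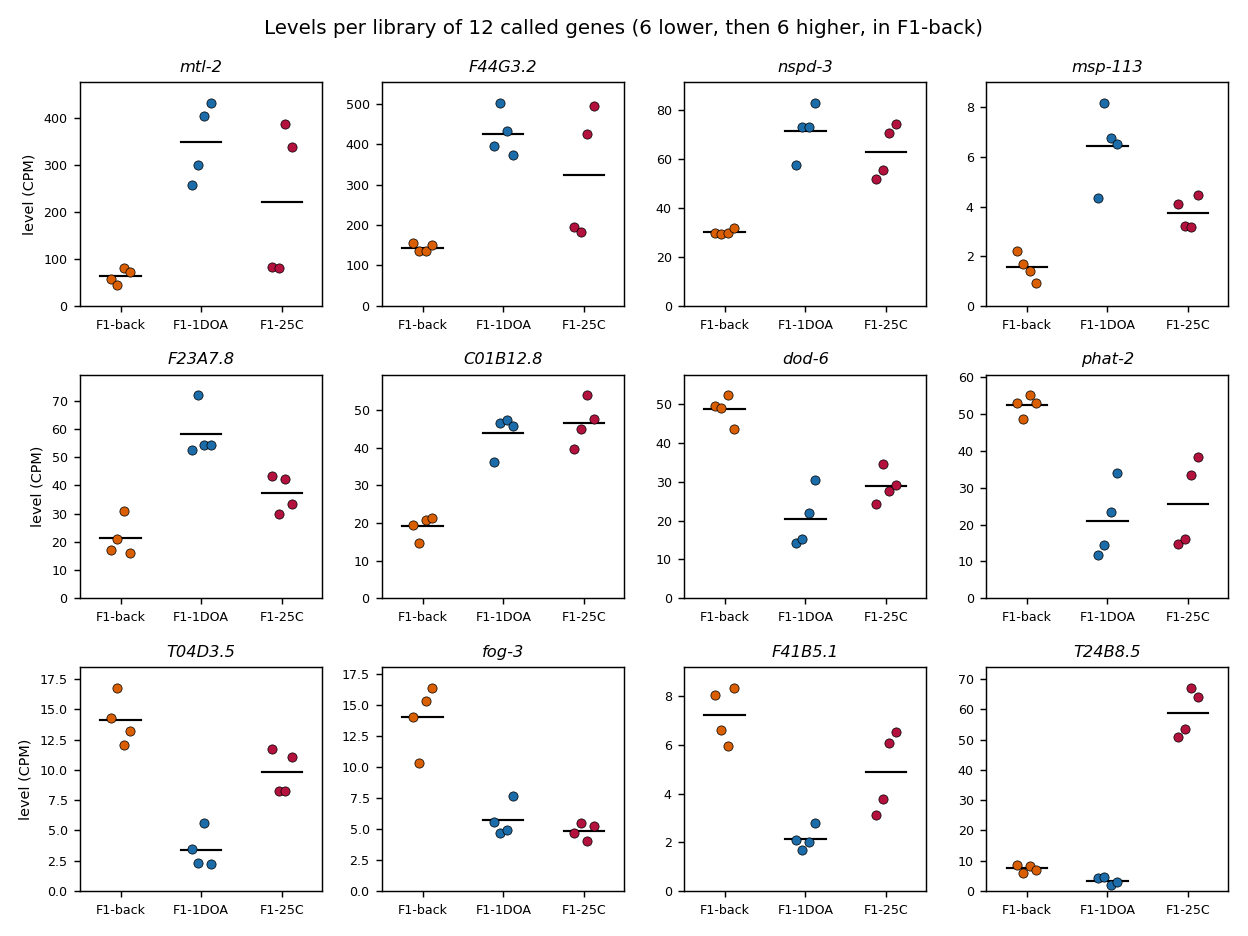
Level (CPM) in each library of 12 called genes in F1-back, F1-1DOA and F1-25C, with a bar at the mean of 4. The first 6 genes were lower in F1-back and the last 6 higher, and T24B8.5 is the 1 gene shown whose F1-25C level, 50.8 to 67.2 CPM, lies far above both 20°C groups.

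T24B8.5, named sysm-1 in RefSeq, is a target of the p38 MAP kinase immune pathway. It was at 8.69, 5.98, 8.23 and 7.04 CPM in F1-back and 4.13, 4.68, 1.89 and 2.97 in F1-1DOA (log2 fold change 1.15, SE 0.26, edgeR adjusted p = 0.034). F1-25C was at 50.8 to 67.2 CPM, far above both 20°C groups. F1-4DOA (6.21 to 10.3 CPM) and 1DOAx1DOA (6.65 to 10.8 CPM) overlapped F1-back without exposure to 25°C.

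The last 4 higher genes were dod-6, phat-2, nas-12 and F23H11.7, and for each of them 1DOAx1DOA overlapped F1-back. dod-6, named as a gene downstream of the transcription factor DAF-16, was at 49.3, 49, 52.2 and 43.6 CPM against 14.1, 15.3, 22 and 30.3 (log2 fold change 1.23, SE 0.23, edgeR adjusted p = 0.00515), and at 34.3 to 53.4 in 1DOAx1DOA. phat-2, of a family expressed in the pharyngeal gland, lies outside the naming rule and was added after its values were seen. It was at 48.5 to 55.1 CPM against 11.8 to 33.9 (log2 fold change 1.31, SE 0.31, edgeR adjusted p = 0.043), at 47.3 to 64.1 in 1DOAx1DOA, and lost its call in 10 of 20 other settings. It is also 1 of the 5 genes that separated the 2 sets of libraries. nas-12, an astacin protease gene, was at 13.2 to 16.8 CPM against 3.62 to 9.27 (log2 fold change 1.25, SE 0.27, edgeR adjusted p = 0.0215), and at 10.2 to 14 in 1DOAx1DOA. F23H11.7 was at 4.53 to 5.57 CPM against 1.51 to 3.06 (log2 fold change 1.2, SE 0.22, edgeR adjusted p = 0.00515), and at 4.12 to 5.4 in 1DOAx1DOA.

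With 1DOAx1DOA as the reference, whose animals were at 20°C but came from a cross, 4 of the 22 higher genes were called higher (T04D3.5, F41B5.1, T07F12.7 and T20F7.1; 0.167% of all genes) and 4 of the 21 lower genes were called lower (ugt-8, Y23H5A.2, Y73B3A.13 and ZC317.7; 0.594% of all genes). Over all genes this reference gave 0.761% calls. The sign was kept in 18 of 22 and 19 of 21. F1-back libraries are shared by both contrasts.

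Contrasts that share no library with F1-back or F1-1DOA were then read for the 43 genes. Between 1DOAx4DOA and F1-4DOA, both from mothers on day 4 and at 20°C, 12 of the 22 higher genes were called higher, 54.5% of these and 13% of the 92 genes called there, where 0.667% of all genes were. All of these 12 but nas-12 and phat-2 belong to the near-zero genes whose summed level set the library sets apart. The contrast crosses those sets, so their share is no independent result. Of the 21 lower genes, 5 were called lower there (23.8%; 2.27% of the 220 called, 1.59% of all genes). No gene of the 43 was called the opposite way, and 2.26% of all genes were called there. Between *set-2* F1-25C and *set-2* F1-1DOA, 6 of the 22 higher genes were called higher (27.3%; 2.11% of the 285 called, 2.07% of all genes). Of the 21 lower genes, 2 were called lower there (9.52%; 1.65% of the 121 called, 0.877% of all genes) and 3 higher. The first contrast crosses the same 2 sets of libraries with no exposure to 25°C, and what part this has in the calls was not tested.

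The difference between F1-back and F1-1DOA was also tested against that between 1DOAx4DOA and F1-4DOA in the same fit. Of 13794 genes, 9 (0.0652%) differed between the contrasts at the same edgeR thresholds, 2 higher (0.0145%) and 7 lower (0.0507%). T04D3.5 was the 1 gene of the 43 among them (edgeR adjusted p = 0.00865).

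Of 10 small heat shock and inducible hsp-70 genes tested, edgeR called 0, with 2 at an unadjusted p under 0.05, and F1-back and F1-1DOA overlapped in their summed level (284 to 322 and 311 to 360 CPM), while F1-25C held 550 to 803 CPM. hsp-16.2 and hsp-70 were chosen after their values were seen. hsp-16.2, a small heat shock gene, was at 1.03 to 2.13 CPM in F1-back and 0.868 to 1.2 in F1-1DOA, below the 5.97 to 15.5 CPM of F1-25C (log2 fold change of F1-back over F1-1DOA 0.66, SE 0.83, edgeR adjusted p = 0.825). hsp-70, an inducible chaperone gene, was at 9.24, 8.64, 4.41 and 2.25 CPM in F1-back and 1.11, 1.95, 2.79 and 2.97 in F1-1DOA, so that the groups overlapped (log2 fold change 1.44, SE 0.56, edgeR adjusted p = 0.329). DESeq2 on the 8 libraries alone called it higher (log2 fold change 1.5, adjusted p = 0.00853, the lowest of a range that reached 0.682 over 20 settings). F1-25C was at 5.17 to 9.28 CPM, and groups at 20°C overlapped that range, with 4.01 to 7.26 in F1-4DOA and 5 to 9.2 in 1DOAx1DOA. Constitutive chaperones had 0 calls of 42, where 0.312% of all genes were called. The HSP90 gene daf-21 had means of 3480 against 2460 CPM (log2 fold change 0.5, SE 0.17, edgeR adjusted p = 0.228) and hsp-1 of 3240 against 2450 CPM (log2 fold change 0.4, SE 0.18, edgeR adjusted p = 0.398).

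The pathways the study is about showed no call. Over all genes 0.312% were called and 10.8% had an unadjusted p under 0.05, so most lists of this size would hold no call. Of 16 genes of the H3K4 methylation machinery, 0 were called, 0 had an unadjusted p under 0.05, and log2 fold changes ran from -0.36 to 0.37. The gene entry of *set-2* itself held 7 counts over the 8 libraries, and its 2 entries named by a transcript held 0. Its level could thus not be compared. Of 48 axon guidance genes, 0 were called, 1 had an unadjusted p under 0.05, and they ran from -0.57 to 0.38. Abundant members were unc-44, an ankyrin, at 530 against 447 CPM (log2 fold change 0.25, SE 0.16, edgeR adjusted p = 0.614), and nid-1, nidogen of the basement membrane, at 333 against 291 CPM (0.2, SE 0.2, edgeR adjusted p = 0.781). Pan-neuronal genes (14), ribosomal protein genes (71), nuclear hormone receptors (161), fatty acid activation, oxidation and lipolysis genes (84) and transporters (124) had 0 calls, with median log2 fold changes of 0.08, -0.11, -0.17, -0.06 and 0.01. A missed threshold does not show that these genes were equal. The abu and pqn genes of the pharyngeal cuticle had 0 calls of 63, a median of 0.13, and sums of 5180 to 5530 CPM against 4660 to 5140, which did not overlap. Their sums were 4540 to 5810 CPM in 1DOAx1DOA, 5450 to 5890 in 1DOAx4DOA and 3550 to 6460 in F1-4DOA.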

How the data were processed

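Each library was a pool of whole L4 animals. According to the authors, RNA was extracted with the Arcturus PicoPure kit, libraries were made with the TruSeq RNA v2 kit, which does not mark strand, and reads were trimmed with Trimmomatic, aligned with RNA STAR and counted with htseq-count against WS220 (ce10 in the submitters' processing notes). The value deposited for each gene is a raw count. The sources used here do not give the strand and overlap settings. A library holds 45410 entries, of which 3837 named by a transcript (NM_ or NR_) were left out.

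The 36 libraries of the environmental experiment, in 9 groups of 4, were fitted together with edgeR 4.0.16 (R 4.3.3, statmod 1.5.0 and limma 3.58.1): default low-count filter, TMM factors and robust quasi-likelihood, calling genes whose log2 fold change was beyond 1 at an adjusted p under 0.05. CPM used the effective library sizes. Alternatives were DESeq2 1.42.0, RLE factors, library totals, other filters, fewer libraries, transcript entries kept or summed, no fold threshold, a replicate block, leaving out each library, and 2 added after seeing the data. The fit was tested on simulated data. Genes were named by this rule: both metallothioneins, the 15 higher and 15 lower called genes with the smallest adjusted p and no overlap, at most 4 called members per list, and at most 2 abundant members where a list had no call. Members, lists and tests were chosen with earlier results of these data known, so no list is independent evidence of its direction. The labels call the libraries biological replicates, and the same F1-1DOA libraries serve every WT comparison. Names, neighbours and overlaps came from RefSeq and the WBcel235 annotation (43 of 43 called genes and 13475 of 13794 tested matched), of which no coordinates are given since the build differs. A planned look at promoters and proteins was not run, and no sequences were analysed here.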

Additional observations from a re-analysis of the deposited data

Results flagged for a closer look

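For the genes named above, 1 library lay far from the other 3 in 11 of 124 groups of 4 libraries. Chance gives this in about 1 in 20 groups of continuous values, a rate that does not apply to T02H6.1, col-2 and col-50, whose other 3 libraries were at 0. In F1-1DOA, replicate 2 was high for the neighbours F23A7.8 (72 CPM, the others 52.6 to 54.5) and F23A7.4 (55.6 CPM, the others 43.1 to 44.2) and for col-85 (0.52 CPM, the others 0 to 0.0457). Replicate 1 of F1-1DOA was low for C01B12.8 (36.2 CPM, the others 45.8 to 47.4). Replicate 4, the deepest F1-1DOA library, was the only one with reads of T02H6.1 (0.0457 CPM), col-2 (0.0457 CPM) and col-50 (0.0913 CPM). In F1-back, replicate 2 was high for F23H11.7 (5.57 CPM, the others 4.53 to 4.7) and Y73B3A.1 (10.3 CPM, the others 7.93 to 8.04). The ribosomal RNA entry rrn-2.1 was high in F1-back replicate 4 (182 CPM, the others 9.34 to 25.9) and low in F1-1DOA replicate 4 (144 CPM, the others 404 to 445).

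The transcript-named entries, left out of the comparison, were called more often than genes. Of 1512 tested, 35 were called (2.31%), and 34 of these were higher in F1-back. Of such entries, 17 were higher in each of the 24 libraries of F1-back, the *set-2* groups and the crosses than in any of the 12 libraries of F1-1DOA, F1-4DOA and F1-25C, and 1 was lower.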

How the results depend on the processing

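The number of calls, 22 higher and 21 lower, and the genes called depended on the processing. None of the 43 genes reversed in any of up to 20 other settings chosen beforehand with earlier results known. These settings refit the counts on which the genes were picked, so a reversal was unlikely and its absence is no test of direction. In all settings that gave a value, 14 genes (10 higher, 4 lower) were called. DESeq2 called 36 genes higher on 36 libraries, and 40 higher and 50 lower on the 8 libraries alone, edgeR 50 lower on the 8 libraries alone (13 of the 22 and 18 of the 21 shared). A mean of at least 50 counts left 10 higher and 11 lower. Keeping transcript-named entries gave 62 higher, and summing the entries of a gene 54. Leaving out 1 library gave 16 to 24 higher and 4 to 15 lower calls; the lower calls fell to 4, 8, 13 and 5 without F1-back replicates 1 to 4 and to 9 without F1-1DOA replicate 2 or 4, and 26 of the 43 genes lost their call in at least 1 such fit. mtl-2, msp-113, F23A7.8 and C01B12.8 kept theirs in every such setting that gave a value. vit-2, not called, ranged from -0.03 to 0.83 over these fits.

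With the replicate number as a block, 12 genes were called higher on the 8 libraries (24 on 36 libraries). Same-numbered libraries of the 2 groups correlated at -0.569, -0.215, -0.614 and 0.0011 in their deviations, so no pairing by number was seen. These values cannot exclude it, since the libraries of both groups also fell into the pairs described next. Within F1-back, replicates 1 and 2, and 3 and 4, were closer to each other (8.22 and 6.42 chi-square units per gene) than across (23.8 to 36.2). F1-1DOA split the same way, at 13.8 and 17.3 within these pairs and 29 to 47.3 across. Why both groups fell into pairs was not tested.

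With 1DOAx1DOA as the reference, chosen after seeing the data, 82 genes were called lower. Log2 fold changes turned or went to 0 for 21ur-6598 (0.33), T24B8.5 (-0.27), ifc-2 (-0.17), phat-2 (-0.07), F23H11.7 (0) and Y81G3A.1 (0). Beyond the difference of 1DOAx4DOA and F1-4DOA, 2 genes were higher and 7 lower, and the sign turned for 21ur-6598 (0.99), K04D7.17 (-1), ifb-1 (-1.49), ifc-2 (-0.54), msp-113 (0.06), nas-12 (-0.03) and phat-2 (-0.09). For each count or gene that moved, the cause was not tested. At these depths genes under 1 CPM rest on a few counts per library.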
